A study of Mus musculus with 3 samples.

Results

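The genes described here encode AMP-activated protein kinase (AMPK), the energy-sensing kinase of the cell, together with the kinase that switches it on. They were the catalytic α subunits Prkaa1 and Prkaa2, the β subunits Prkab1 and Prkab2, the γ subunits Prkag1, Prkag2 and Prkag3, and Stk11, which encodes LKB1. Members were taken by gene symbol from the annotation of the array, and all 8 of 8 listed genes were found, out of 18193 genes with a probe set of 1 gene symbol. Together they were covered by 18 probe sets, a probe set being a group of short probes against 1 transcript. Gastrocnemius muscle of male C57BL/6J mice was measured on Affymetrix whole-genome mouse arrays, with 1 array for each of 3 groups. The HF + SFC group received a diet with 60% of energy from fat (D12492) that contained 0.023% (w/w) sodium ferrous citrate (SFC), an iron salt. The HF group received D12492 without SFC, and the Control group received D12450B, with 10% of energy from fat and more sucrose. Feeding started at 6 weeks of age and lasted 15 weeks, although 21 months is the age stated in the sample labels. The cDNAs of the samples in a group were mixed for its array. None of the differences below could therefore be checked against replicates, and nothing was tested statistically. There was no group with SFC on the Control diet.

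AMPK is a complex of 1 α, 1 β and 1 γ subunit. The α subunit carries the kinase domain, the β subunit holds the complex together and binds glycogen, and the γ subunit binds AMP, ADP and ATP and so reads the energy state of the cell. LKB1 phosphorylates the activation loop of α. In skeletal muscle, active AMPK favours glucose uptake, fatty acid oxidation and mitochondrial renewal and restrains lipid and protein synthesis. Complexes of α2, β2 and γ3 are typical of fast, glycolytic muscle fibres, whereas α1, β1 and γ1 occur in most tissues. The arrays read the amount of mRNA for each subunit and not kinase activity, which depends on phosphorylation and nucleotide binding.

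The deposited values are MAS5 signals on a linear scale, with the same trimmed mean of 500.004 on every array. Muscle markers were among the brightest genes, with creatine kinase Ckm at 50185 in HF + SFC, 37327 in HF and 45640 in Control. All 10 of 10 skeletal muscle markers had a higher signal in HF + SFC than on the HF array, and 9 of 10 a lower one in HF than in Control, though under quantile normalization these counts were 8 and 7. All 10 measured adipocyte markers exceeded Control on the HF array, at a median log2 ratio of 0.82. The 3' over 5' ratio of beta-actin probe sets, a measure of RNA integrity, was 1.15 in HF + SFC, 1.52 in HF and 1.09 in Control, whereas that of Gapdh was 0.820 in HF + SFC, 0.832 in HF and 0.842 in Control. In whole muscle, fewer cells of a type and less RNA per cell cannot be told apart.

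For each gene the brightest probe set, by mean log2 signal, was used, and ratios are given on the log2 scale or as folds. All 8 members lay above the median signal of all genes, and 5 of them above the 75th percentile. None of the 8 members reached 1.5-fold, the threshold of the study, in HF + SFC against HF. Among all genes 27.2% passed in this comparison (13.5% were 1.5-fold lower), and most of these were dim. Among genes above the 75th percentile of signal 0.44% passed in either direction, and among genes between the median and the 75th percentile 4.31% did, so 0 of 8 is near the background for genes of such signals. In HF against Control again no member reached 1.5-fold, beside 2% and 7.08% of genes in the same ranges of signal and 29.3% of all genes (12.2% lower). In HF + SFC against Control 1 member, Prkag2, was 1.5-fold lower, beside 1.34% and 6.05% of genes in those ranges and 29% of all genes in either direction, with 12.4% of all genes 1.5-fold lower.

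By direction, SFC went with a higher signal for 5 of 8 members on the HF diet, at a median log2 ratio of 0.07 against 0.01 over all genes. Under quantile normalization 6 of 8 were higher, since Prkag3 then lay just above 0. In HF against Control, 2 of 8 members lay above 0 and 6 below, at a median of -0.15 against 0.01 over all genes. For HF + SFC against Control the counts were 3 higher and 5 lower, with a median of -0.05 against 0.02. Quantile normalization and both kinds of centring given below kept the sign of each median. With the mean over the probe sets of each gene, however, these medians took the opposite sign. They were -0.04 for HF + SFC over HF, 0.05 for HF over Control and 0.06 for HF + SFC over Control. Averaging brings in the dim second probe sets of Prkab1 and Stk11, described below. The list as a whole thus had no direction that held under every choice of probe sets.

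**Figure D1:**
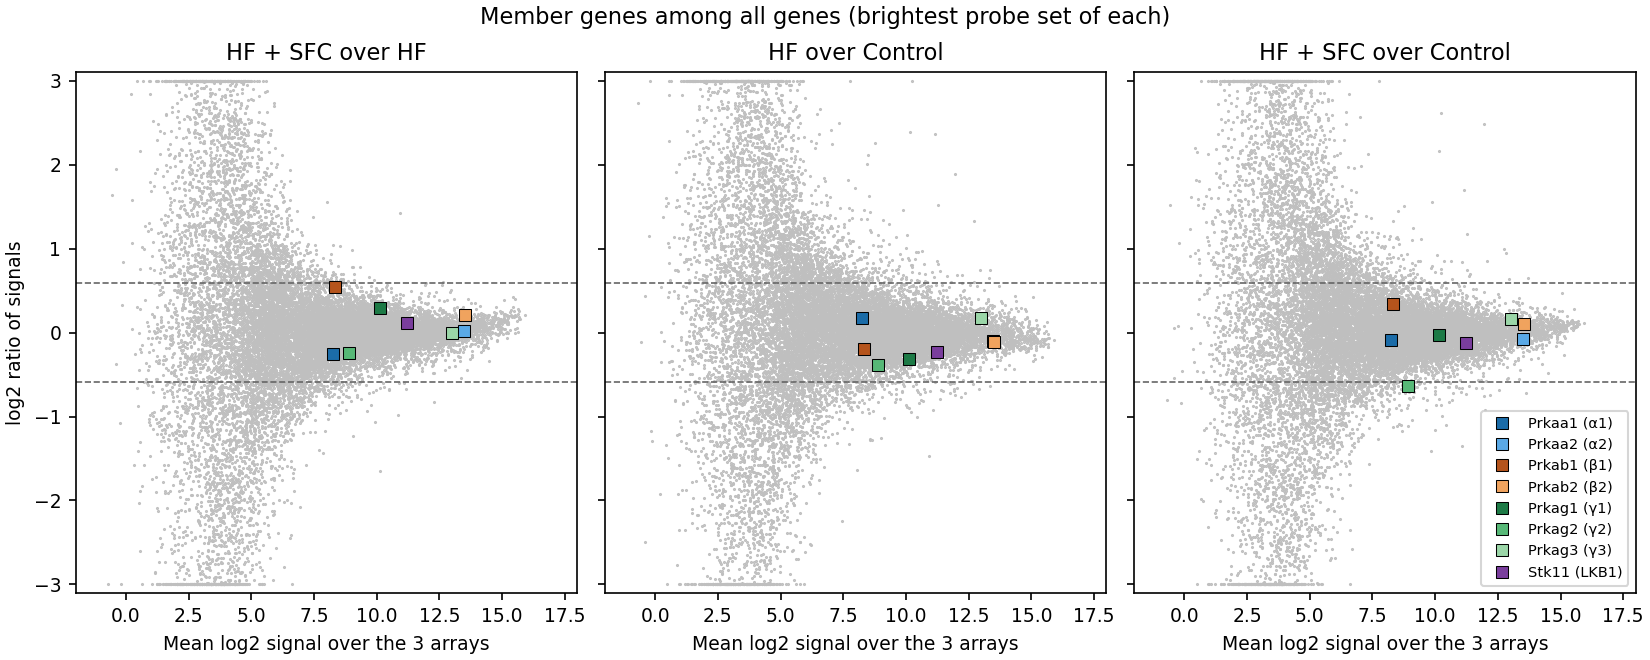
The log2 ratio of the signals is plotted against the mean log2 signal of the 3 arrays for 18193 genes by their brightest probe set (grey), with ratios beyond 3 drawn at 3. Coloured squares are the 8 members and dashed lines mark 1.5-fold; Prkag2 is the only member beyond a line, in HF + SFC over Control, at 0.645-fold.

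As a guide to measurement error in place of replicates, the ratios of the brightest and the next brightest probe set of the same gene were compared. Over 1489 genes with both above the 75th percentile, the difference had an SD of 0.21 on the log2 scale for HF + SFC over HF, 0.23 for HF over Control and 0.19 for HF + SFC over Control. Over 2227 genes whose next brightest probe set lay between the median and the 75th percentile, the SD was 0.32 for HF + SFC over HF, 0.34 for HF over Control and 0.32 for HF + SFC over Control. This spread covers differences between probes and transcripts but not between mice.

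Signals of the catalytic subunits differed little between the diets. Prkaa2, the α2 subunit that predominates in muscle, had 11320.5 in HF + SFC, 11132 in HF and 11926 in Control on its brightest probe set. Its next brightest had 6037 in HF + SFC, 6234 in HF and 5616 in Control, and the dimmest 1329.5 in HF + SFC, 1512 in HF and 1459 in Control. The 3 probe sets did not share a direction, and their ratios ranged from 0.879-fold to 1.02-fold for HF + SFC over HF and from 0.933-fold to 1.11-fold for HF over Control. Prkaa1, the α1 subunit found in most tissues, had a single probe set, at 281 in HF + SFC, 336 in HF and 299 in Control. It was highest on the HF array, with log2 ratios of -0.26 for HF + SFC over HF and 0.17 for HF over Control. Both values are smaller in size than 0.32 and 0.34, the SD of the difference between 2 probe sets in that range. That SD is not the error of 1 ratio, so whether these ratios exceed measurement error is not known.

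**Figure D2:**
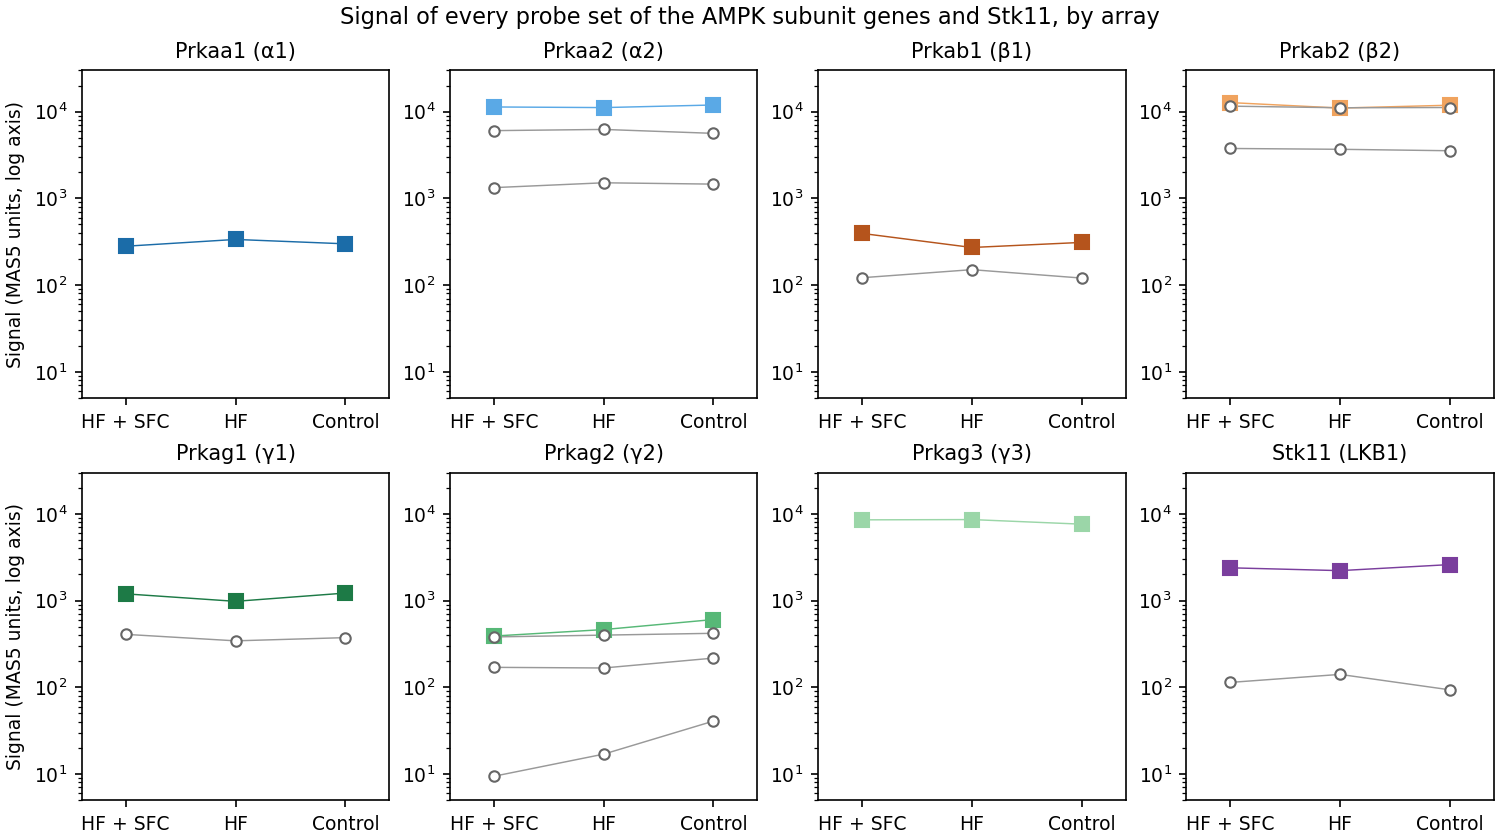
Signals (MAS5 units, log axis) are plotted by array for all 18 probe sets of the 8 genes. Filled squares mark the brightest probe set of a gene, open circles the others, and lines only join the values of 1 probe set; levels of different probe sets are not comparable. The probe sets of Prkag2 all lie highest in Control, and the dimmest had 9.43 in HF + SFC, 17.0 in HF and 40.8 in Control.

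The muscle form of the β subunit, Prkab2, was slightly higher with SFC. Its brightest probe set had 12715 in HF + SFC, 10992 in HF and 11860 in Control. The others had 11567 in HF + SFC, 11081 in HF and 11157 in Control, and 3761 in HF + SFC, 3678 in HF and 3540 in Control. All 3 probe sets had a higher signal in HF + SFC than on either other array. Against HF the ratios were 1.16-fold, 1.04-fold and 1.02-fold, and against Control 1.07-fold, 1.04-fold and 1.06-fold. Each of these ratios is at most about the SD of the difference between 2 probe sets, which is not the error of 1 ratio. Against Control, HF was lower on 2 of the 3 probe sets.

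Prkab1, the β1 subunit, had the highest ratio of the members in HF + SFC against HF, but its probe sets disagreed. The brightest had 394 in HF + SFC, 271 in HF and 310 in Control, and its ratio of HF + SFC over HF was 1.45-fold, just under the threshold. The other probe set, whose name marks probes shared by several transcripts of the gene, had 122 in HF + SFC, 151 in HF and 120 in Control, and was 0.807-fold in the same comparison. In HF against Control the ratios also pointed in opposite directions, with log2 values of -0.19 and 0.32. The second probe set lay below the median signal of the genes (160). There the SD between probe sets was 1.63 for HF + SFC over HF and 1.65 for HF over Control. The direction of Prkab1 thus depended on the probe set in both comparisons, and the dimmer probe set is a weak check.

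The γ subunits, which sense AMP, included Prkag1 and Prkag2, which of the 6 members with more than 1 probe set were those whose probe sets shared a direction against Control in the HF group. Prkag1, the γ1 subunit of most tissues, had 1196 in HF + SFC, 981 in HF and 1221 in Control. Its second probe set, which can also bind other transcripts, had 408 in HF + SFC, 344 in HF and 374 in Control. On both, the signal was lowest in HF. The log2 ratios of HF + SFC over HF were 0.29 and 0.25, and those of HF over Control -0.32 and -0.12. The ratios of the brighter probe set exceed the SD of 0.21 and 0.23 for bright pairs of probe sets but not that of 0.32 and 0.34 for pairs like this one, with a second probe set of middle signal. The signals of HF + SFC and Control differed by 0.979-fold and 1.09-fold only.

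Prkag2, the γ2 subunit, had 390 in HF + SFC, 463 in HF and 605 in Control on its brightest probe set. The corresponding values were 381 in HF + SFC, 400 in HF and 420 in Control on the next brightest and 170 in HF + SFC, 167 in HF and 217 in Control on the one after it. All 4 of its probe sets were below Control in both high-fat groups. The log2 ratios of HF + SFC over Control were -0.63, -0.14, -0.35 and -2.11 from the brightest to the dimmest, and those of HF over Control -0.38, -0.07, -0.38 and -1.27. The dimmest probe set lay at percentile 26.0 of all probe sets, a low signal. The name of the next brightest (_s_at) marks probes that may bind other transcripts. Between HF + SFC and HF, 3 of 4 probe sets were lower with SFC, at 0.842-fold on the brightest, and 1 was at 1.02-fold. With an offset of 50 added to each signal, the brightest probe set of Prkag2 no longer reached 1.5-fold in HF + SFC against Control (log2 ratio -0.57).

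Prkag3, the γ3 subunit of fast muscle fibres, had 8535 in HF + SFC, 8596 in HF and 7609 in Control on its only probe set. Both high-fat groups were above Control, by 1.12-fold and 1.13-fold, and differed from each other by 0.993-fold. Of 13 markers of fast fibres, 13 were lower in HF than in Control (8 lower and 3 higher under quantile normalization). In HF + SFC against Control 13 of 13 were higher, as Prkag3 was, or 5 higher and 4 lower under quantile normalization and 8 higher and 5 lower with arrays centred on their medians. Whether fibre type composition had a part in the signals of Prkag3 was not tested.

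**Figure D3:**
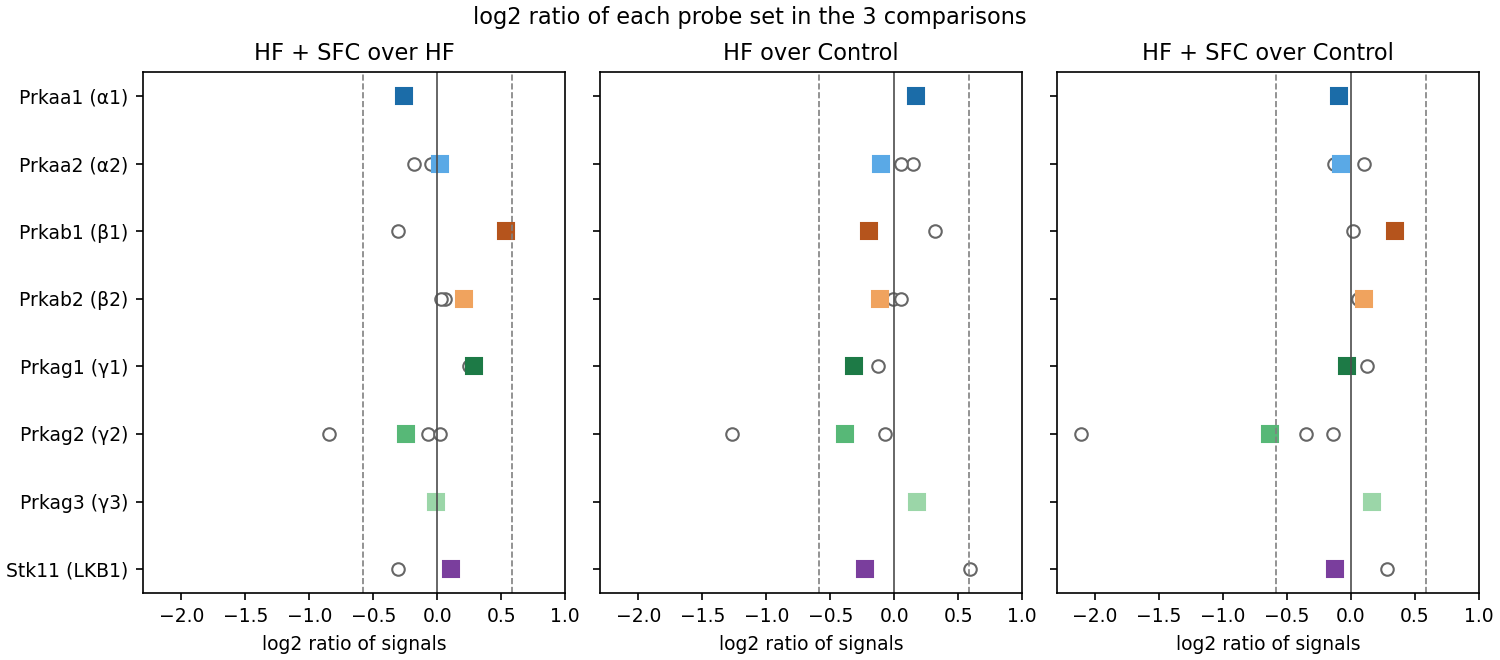
The log2 ratio of each probe set is plotted for HF + SFC over HF, HF over Control and HF + SFC over Control. Filled squares are the brightest probe set of a gene, open circles the others, and dashed lines mark 1.5-fold; both probe sets of Prkag1 lie above 0 in the first panel and below 0 in the second, and all 4 of Prkag2 lie below 0 in the second panel and in the last.

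The promoters of the γ genes are shown because the ratios of these isoforms differed from each other on the same arrays. Each window runs from 250 bases before to 50 bases after an annotated start, and the sequences come from RefSeq (GRCm38.p6), read 5′ to 3′ on the strand of the gene. Capitals mark E-boxes (CANNTG, the same on both strands), the letters bound by muscle factors of the MyoD family. Prkag2 has 3 annotated starts in that table, and the arrays do not tell which of them its probe sets follow.
Prkag1 (chr15:98831459-98831758, minus strand): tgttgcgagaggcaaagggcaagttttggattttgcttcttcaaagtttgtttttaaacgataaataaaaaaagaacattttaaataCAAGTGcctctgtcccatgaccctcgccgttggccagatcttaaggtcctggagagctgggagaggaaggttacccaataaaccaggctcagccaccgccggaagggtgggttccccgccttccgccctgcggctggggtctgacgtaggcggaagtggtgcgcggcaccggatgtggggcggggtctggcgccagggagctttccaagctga
Prkag2 upstream start (chr5:25100593-25100892, minus strand): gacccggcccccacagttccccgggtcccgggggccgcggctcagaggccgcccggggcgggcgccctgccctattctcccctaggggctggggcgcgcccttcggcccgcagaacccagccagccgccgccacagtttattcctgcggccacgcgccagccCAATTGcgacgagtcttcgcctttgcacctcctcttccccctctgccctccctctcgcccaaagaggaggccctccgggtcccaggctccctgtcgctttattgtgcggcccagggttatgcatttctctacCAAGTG
Prkag2 middle start (chr5:24995704-24996003, minus strand): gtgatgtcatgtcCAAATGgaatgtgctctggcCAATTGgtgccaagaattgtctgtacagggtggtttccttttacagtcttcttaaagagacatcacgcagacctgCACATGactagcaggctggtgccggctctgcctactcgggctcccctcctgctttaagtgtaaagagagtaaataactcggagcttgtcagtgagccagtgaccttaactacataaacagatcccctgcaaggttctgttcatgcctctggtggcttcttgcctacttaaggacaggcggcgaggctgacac
Prkag2 downstream start (chr5:24908460-24908759, minus strand): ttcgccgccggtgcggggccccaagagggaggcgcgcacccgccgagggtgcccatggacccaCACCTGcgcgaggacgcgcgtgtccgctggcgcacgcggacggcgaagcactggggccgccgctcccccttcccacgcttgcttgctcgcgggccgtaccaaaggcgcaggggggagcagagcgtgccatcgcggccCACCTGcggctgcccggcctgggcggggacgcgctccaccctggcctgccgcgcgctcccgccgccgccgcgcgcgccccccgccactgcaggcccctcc
Prkag3 (chr1:74748906-74749205, minus strand): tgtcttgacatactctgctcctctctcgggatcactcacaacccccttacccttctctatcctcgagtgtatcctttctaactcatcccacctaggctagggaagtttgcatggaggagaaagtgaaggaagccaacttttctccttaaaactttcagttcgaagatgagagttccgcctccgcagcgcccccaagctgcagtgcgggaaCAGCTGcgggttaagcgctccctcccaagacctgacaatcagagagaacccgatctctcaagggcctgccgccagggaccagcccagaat
An E-box was found in all 5 windows, with 1 in Prkag1, 2, 3 and 2 in the starts of Prkag2 and 1 in Prkag3. This is not particular to them, as 72.3% of 32851 promoter windows of the same length held at least 1. The GC box (GGGCGG on either strand), which factors of the Sp family bind, was found 2 times in Prkag1, 2, 0 and 1 times in the starts of Prkag2, and 0 times in Prkag3, and 35.7% of all windows held it. No base was shared by an E-box and a GC box. A form of the MEF2 site (CTA, any 4 bases, TAG) was found in none of these windows and in 3.69% of all. AAGGTCA on either strand, a site of estrogen-related receptors, was found in the middle start of Prkag2 and in 4.72% of all. In that start it lies on the opposite strand and reads TGACCTT in the sequence shown. Such matches describe the sequence and do not show that a factor binds.

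Stk11, the gene of LKB1, had 2389 in HF + SFC, 2216 in HF and 2602 in Control on its brightest probe set, which was lowest in HF. The other, at 114 in HF + SFC, 141 in HF and 93.6 in Control, was highest in HF. The ratios of HF over Control were 0.852-fold and 1.51-fold, and those of HF + SFC over HF were 1.08-fold and 0.808-fold. The dim probe set lay at percentile 59.9 of all probe sets and the bright one at 92.7. The dim one was below the median signal of the genes (160), where probe sets of a gene differed most, so it is a weak check. The direction of Stk11 thus depends on the probe set.

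Setting 2 isoforms against each other on the same arrays removes any scaling of an array, and shows whether their signals differed unequally between the diets. In HF + SFC over HF the log2 ratio of Prkag2 minus that of Prkag1 was -0.53, and 8 of 8 pairs of their probe sets were below 0. In HF + SFC over Control this difference was -0.60, again below 0 in 8 of 8 pairs. It was -0.07 in HF over Control, where 6 pairs were below and 2 above 0. Prkag3 minus Prkag1 was 0.49 in HF over Control and -0.30 in HF + SFC over HF, with both pairs of the same sign in each. Prkag3 minus Prkag2 was 0.56 in HF over Control and 0.80 in HF + SFC over Control, with 4 of 4 pairs above 0 in both. In HF + SFC over HF it was 0.24, with 3 pairs above 0 and 1 below. The SD of 0.32 to 0.34 between probe sets of middle signal is also that of a difference between 2 ratios. Of the differences with Prkag2, a gene of middle signal, -0.53, -0.60, 0.56 and 0.80 were larger in size. The values of -0.07 and 0.24 were not. That SD was taken within genes, so it is only a guide for 2 genes. The comparisons share arrays, so these values do not count as separate evidence. Nor do the pairs, which reuse the same few probe sets: the 8 pairs combine 4 of Prkag2, including its dimmest, with 2 of Prkag1.

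For the catalytic subunits, Prkaa2 minus Prkaa1 was -0.27 in HF over Control and 0.28 in HF + SFC over HF, with 3 of 3 pairs of the same sign, and 0.02 in HF + SFC over Control. All of these pairs use the single probe set of Prkaa1. For the β subunits, Prkab2 minus Prkab1 was -0.33 in HF + SFC over HF on the brightest probe sets, but 3 of 6 pairs lay above 0 and 3 below.

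**Figure D4:**
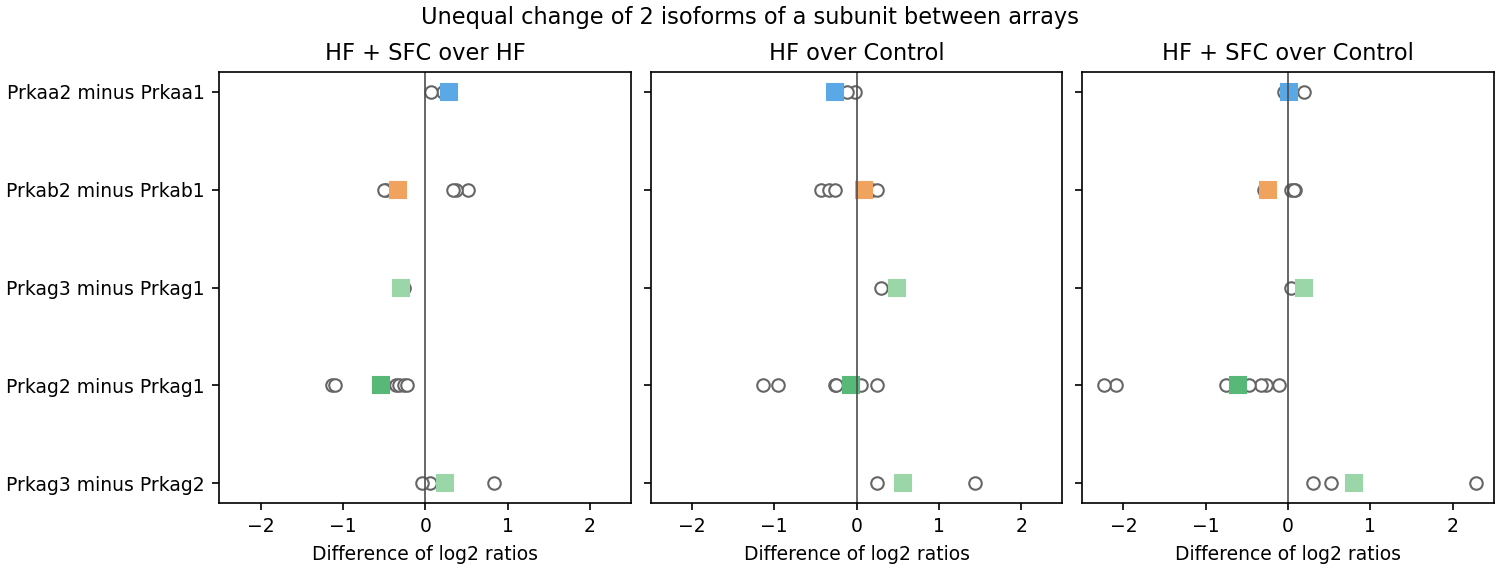
The difference between the log2 ratios of 2 isoforms is plotted for 5 isoform pairs in each comparison, where 0 means equal change. Filled squares use the brightest probe set of each gene and open circles every other combination of their probe sets; all 8 combinations for Prkag2 minus Prkag1 lie below 0 in HF + SFC over HF and in HF + SFC over Control.

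The genes with the most similar pattern were sought for the brighter members, by the distance between their pairs of log2 ratios (HF over Control and HF + SFC over HF) among 4547 other genes above the 75th percentile. Closest to Prkag1 were Srrm2, an mRNA splicing factor, at a distance of 0.004, with 3844 in HF + SFC, 3160 in HF and 3936 in Control, then the nuclear receptor coactivator Ncoa1 at 0.01 and Pa2g4 at 0.015. Closest to Prkag3 were the actin-severing protein gelsolin (Gsn), with 30338 in HF + SFC, 30635 in HF and 27088 in Control, then Dennd1b and Yaf2. With 3 arrays such likeness is common, as 101 genes lay within 0.1 of Prkag1, 429 within 0.1 of Prkag3 and 922 within 0.1 of Prkaa2.

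Among the partners of LKB1, 3 of 4 lay above Control in HF and 3 of 4 above HF in HF + SFC, and none reached 1.5-fold. The pseudokinase Strada, which activates LKB1, had 494 in HF + SFC, 431 in HF and 390 in Control. Stradb, its relative, had 7960 in HF + SFC, 8670 in HF and 7724 in Control, and the scaffold Cab39 (MO25α) had 7714 in HF + SFC, 7509 in HF and 7965 in Control. Cab39l (MO25β) had 795 in HF + SFC, 770 in HF and 620 in Control and the highest ratio of these partners to Control, at 1.28-fold in HF + SFC and 1.24-fold in HF. Of the other kinases that can phosphorylate AMPK, the calcium-dependent Camkk2 had 195 in HF + SFC, 153 in HF and 180 in Control, and Map3k7 (TAK1) had 1297 in HF + SFC, 1158 in HF and 1287 in Control. Both were lowest in HF, as Prkag1 was, and Camkk1 was not analysed here.

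LKB1 also activates a group of kinases related to AMPK. Of these 12 genes, HF was below Control for 9 and above it for 3 (median log2 ratio -0.21), and HF + SFC was above HF for 10 and below it for 2 (median 0.13), against medians of 0.01 over all genes in both comparisons, which share the HF array. HF + SFC was below Control for 9 of 12 (median -0.16, against 0.02 over all genes). The counts were the same under quantile normalization and both kinds of centring. Mark3, a kinase of microtubule-associated proteins, had 1913 in HF + SFC, 1427 in HF and 1581 in Control, Mark4 had 391 in HF + SFC, 327 in HF and 441 in Control, and Mark1 had 184 in HF + SFC, 251 in HF and 229 in Control, the lowest ratio with SFC. No member of this group above the 75th percentile reached 1.5-fold, and those past it (Brsk1, Brsk2 and Nuak2) lay below the median signal.

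Of 24 listed substrates of AMPK 23 were measured, and in HF against Control 10 were higher and 13 lower (6 and 17 with arrays centred on their medians), with 2 past 1.5-fold. These were Ulk1, the kinase that starts autophagy, with 2571 in HF + SFC, 2154 in HF and 3453 in Control, and Pfkfb3, which makes the glycolytic activator fructose 2,6-bisphosphate, with 3115 in HF + SFC, 3529 in HF and 5914 in Control. Among genes above the 75th percentile, 0.923% were 1.5-fold lower in HF than in Control. In HF + SFC against Control 17 of 23 were lower, or 21 with arrays centred on their medians. The median log2 ratio was -0.16, against 0.02 over all genes. Pfkfb3 at 0.527-fold and Ppargc1a at 0.603-fold passed the threshold. In this comparison 0.748% of genes above the 75th percentile and 12.4% of all genes were 1.5-fold lower. In HF + SFC against HF the list was split, with 12 higher and 11 lower, 11 and 12 under either kind of centring, and none at 1.5-fold. Foxo3, a transcription factor of catabolic genes, was highest in ratio (1094 in HF + SFC and 875 in HF), and Ppargc1a, the coactivator of mitochondrial biogenesis, was lowest (1803 and 2515). Tbc1d1, which restrains glucose transporter release until it is phosphorylated, had 951 in HF + SFC, 1260 in HF and 1072 in Control. Lipe, the hormone-sensitive lipase, was highest in ratio for HF over Control, at 633 in HF and 523 in Control. It is also an adipocyte gene, and adipocyte markers were higher in HF, as given above; their part in this value was not tested.

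Regulators of AMPK at the lysosome and the sestrins went both ways, with HF + SFC above HF for 5 of 12 and HF above Control for 5 of 12 (6 under quantile normalization and 4 with arrays centred on their medians). Sesn1, a sestrin induced by stress that promotes AMPK activity, had 1182 in HF + SFC, 1876 in HF and 1359 in Control. It was 0.630-fold in HF + SFC against HF, past the threshold, beside 0.352% of genes above the 75th percentile and 13.5% of all genes. Flcn, the folliculin that restrains AMPK signalling, had 2537 in HF + SFC, 3092 in HF and 4019 in Control, and was 0.631-fold in HF + SFC against Control. There 0.748% of genes above the 75th percentile and 12.4% of all genes were 1.5-fold lower. Sesn1 and Flcn were read from probe sets whose names (_s_at and _x_at) mark probes that may bind other transcripts. The same holds for Mark1, Mark4 and Tbc1d1 above and for Ampd2 below. Lamtor2 of the lysosomal Ragulator complex had 3480 in HF + SFC, 2813 in HF and 3383 in Control, the highest ratio of the list with SFC. Fnip2, a partner of folliculin, had 406 in HF + SFC, 340 in HF and 461 in Control, the lowest ratio in HF against Control. Sesn3 had 525 in HF + SFC, 511 in HF and 434 in Control, the highest ratio in HF + SFC against Control.

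Phosphatases acting on AMPK had a higher signal in HF than in Control for 7 of 9 genes, and for 5 of 9 when arrays were centred on their medians. Their median log2 ratio was 0.12, against 0.01 over all genes, of which 50.7% were higher, and none reached 1.5-fold. Ppp1r3d, which directs protein phosphatase 1 to glycogen, had 318 in HF + SFC, 298 in HF and 245 in Control, and Ppm1a, which removes the activating phosphate, had 8430 in HF + SFC, 8021 in HF and 8498 in Control. Ppp6c, the catalytic subunit of protein phosphatase 6, had 4647 in HF + SFC and 4015 in HF, and Ppp1ca had 7027 and 7422. Enzymes of adenine nucleotide balance, which set the AMP level that the γ subunits read, showed no common direction, with HF + SFC above HF for 6 of 12, or 3 of 12 under quantile normalization. Ckm had the highest ratio with SFC (1.34-fold) and the lowest in HF against Control (0.818-fold), and Ampd2, an AMP deaminase, the lowest with SFC (483 in HF + SFC and 548 in HF). Ampd3 had 977 in HF + SFC, 1043 in HF and 858 in Control. Ak3 had 2923 in HF + SFC, 3041 in HF and 3226 in Control, the lowest ratio in HF + SFC against Control. Adenylate kinase Ak1, which forms AMP from ADP, had 23365 in HF + SFC, 22666 in HF and 23961 in Control, and the muscle AMP deaminase Ampd1 had 32784.5 in HF + SFC, 30383 in HF and 32505 in Control.

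**Figure D5:**
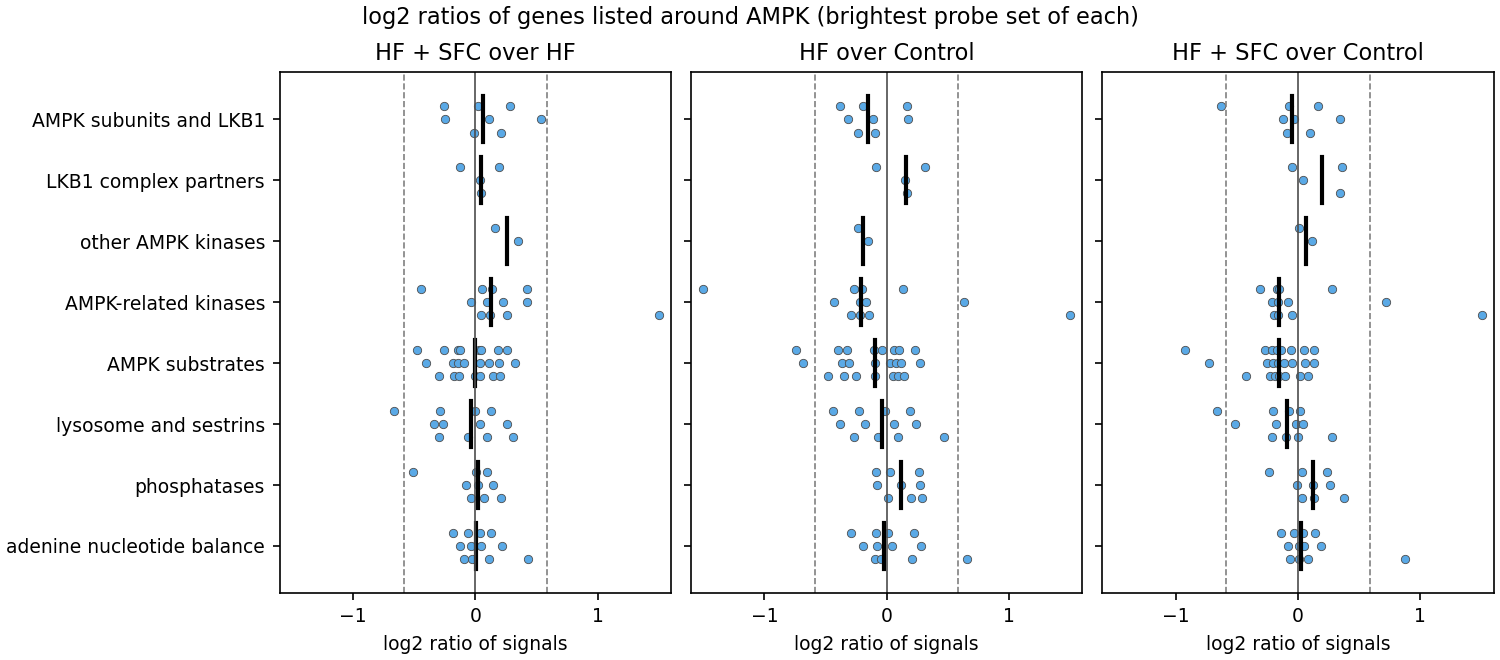
The log2 ratio of the brightest probe set is plotted for each gene of the member list and of 7 lists around AMPK in the 3 comparisons, with values beyond 1.5 drawn at 1.5. Circles are genes, spread vertically for display only, black bars are medians and dashed lines mark 1.5-fold; 9 of 12 AMPK-related kinases lie below 0 in HF over Control and 10 of 12 above 0 in HF + SFC over HF.

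Markers of other cells moved with the diets and stand beside the values above. The summed signal of 12 leukocyte markers was 3732 in HF + SFC, 3931 in HF and 2900 in Control, and that of 11 fibroblast and matrix markers was 43214.5 in HF + SFC, 43616 in HF and 34559 in Control. For 10 adipocyte markers it was 35589 in HF + SFC, 39294 in HF and 28581 in Control. Most of this sum came from Fabp4, at 25306 in HF + SFC, 26497 in HF and 21626 in Control. Leptin (Lep) had 387 in HF + SFC, 592 in HF and 45.8 in Control. The sum of 13 slow fibre markers was 119548 in HF + SFC, 100091 in HF and 129311 in Control. The sums of 10 endothelial markers lay between 7319 and 7499, and the 4 measured red blood cell markers were all below the median signal of the genes. Prkag1 was lowest on the HF array, where the beta-actin ratio was highest, though the Gapdh ratio differed little between the arrays. The summed slow fibre markers were also lowest there, and so, by less, were the fast fibre and general muscle markers. In HF over Control the median log2 ratio was -0.44 for slow fibre, -0.11 for fast fibre and -0.13 for general muscle markers. Under quantile normalization these medians were -0.42, -0.03 and -0.06. The fast fibre sum was 635325 in HF + SFC, 544754 in HF and 592084 in Control. For skeletal muscle fibre markers it was 430721 in HF + SFC, 362357 in HF and 398796 in Control. The part of fibre type, muscle content or RNA integrity in the signal of Prkag1 was not tested.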

How the data were processed

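The authors deposited linear MAS5 signal intensities of 45101 probe sets from 3 arrays of pooled gastrocnemius cDNA (Control, HF, HF + SFC). The mean was the same on every array after trimming of 2% at each end. MAS5 is named in the submitters' processing notes, with no version, and present or absent calls were not part of the values used. Leaving aside 64 controls, 1 symbol was annotated for 34945 probe sets, several for 932 and none for 9160. A RefSeq table (GRCm38.p6) gave current symbols for 34741 by their gene ID and was used for names and promoters only. Log2 ratios were taken between deposited values with no offset, for 18193 genes, each by its brightest probe set. With 1 array per group no test was possible, and the precision of all values is limited by this number. Members and 15 lists of pathway genes and markers, written from textbook knowledge, were chosen with earlier results of these data known. Named genes were all members, the highest and lowest ratio of each pathway list among genes above the median signal, and genes past 1.5-fold above the 75th percentile; further genes were named for their role. Listed genes without a row of 1 symbol were not analysed here. Alternatives tried were averaging the probe sets of a gene, any probe set, quantile normalization, 2 kinds of centring and an offset of 50. Others were a filter below the median signal, and thresholds of 2-fold and (added after the data were seen) 1.2-fold. A further one left out probe sets with the suffix _s_at, _x_at or _a_at. The first 2 mark probes that may bind other transcripts, and _a_at marks probes shared by several transcripts of 1 gene. The steps were tested on simulated data. Python 3.11.15, numpy 2.4.6 and pandas 2.3.3 were used.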

Additional observations from a re-analysis of the deposited data

How the results depend on the processing

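The number of members past 1.5-fold was 0 in HF + SFC over HF, 0 in HF over Control and 1 in HF + SFC over Control. In that order of comparisons, it was 1, 2 and 1 when any probe set of a gene counted, a rule under which 26.4%, 30.5% and 30.1% of all genes were 1.5-fold higher and 26%, 24% and 24.4% lower. At 1.2-fold, a threshold added after the data were seen, it was 2, 2 and 2 of 8, beside 46.8%, 51.5% and 49.3% of all genes and 8.38%, 16.5% and 11.8% of genes above the 75th percentile of signal, and at 2-fold 0, 0 and 0. With an offset of 50 the count for HF + SFC over Control was 0. Without probe sets named _s_at, _x_at or _a_at the count was 1 for HF over Control, since Stk11 was then read from its dim probe set (log2 ratio 0.59). The bright probe set of Stk11 was dropped there for the suffix _a_at, which marks several transcripts of the same gene and not other genes. No other alternative moved a count. The median log2 ratio of the members, 0.07, -0.15 and -0.05, changed sign to -0.04, 0.05 and 0.06 with the mean of all probe sets. In HF + SFC over Control it also changed to 0.04 without probe sets named _s_at, _x_at or _a_at. Single members whose log2 ratio moved by more than the SD between bright probe sets were Prkab1 and Stk11, in 8 values, and several alternatives cannot move some members by construction, such as averaging for Prkaa1 and Prkag3 with 1 probe set each. No paired analysis was possible because each group has 1 array, and no replicate could be left out. The filter on low signal removed no member. Prkaa1, Prkab1 and Prkag2 had lower signals than the 75th percentile of the genes, where probe sets of a gene differed more.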
